A study of Homo sapiens with 32 samples.

Results

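SRPK1, SRPK2, PRPF4B, TRA2A, TRA2B, SON, SRRM1, SRRM2, RBM39 and RBM5 are 10 of the 35238 genes measured by bulk RNA sequencing in 4 human endometrial cancer cell lines. They were chosen by name as kinases of serine/arginine-rich (SR) splicing proteins and as SR-related splicing regulators, a rule that uses no measured value, though earlier results of these data were known when the genes were proposed. All 10 were in the table and all 10 passed the filter on low values, which asked for more than 1 CPM (1 read in 1000000 counted) in at least 2 of 32 libraries and left 17011 genes. The values below give the level of each gene without drug and its change with each drug in each line.

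Splicing of pre-mRNA is guided by proteins that carry stretches of alternating arginine and serine, and the phosphorylation of these stretches decides where the proteins sit in the cell and which RNAs and partners they bind. SRPK kinases phosphorylate SR proteins in the cytoplasm and thereby allow their import into the nucleus, where CDC-like kinases (CLKs) phosphorylate them further and release them from nuclear speckles. SR-related proteins such as SON, SRRM1 and SRRM2 form or join these speckles, and TRA2 proteins and RBM proteins bind RNA and change which exons are kept.

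The lines were Ishikawa, labelled CTNNB1 wild type, and Ishikawa-S33Y, SNGM and HEC265, labelled CTNNB1-mutated; CTNNB1 encodes beta-catenin, a co-activator of Wnt target genes. Each line received vehicle (0.1% DMSO), paclitaxel (a drug that stabilises microtubules), SM08502 (an inhibitor of CLKs) or the combination of both drugs for 24 h, in 2 replicates a group, 16 groups in all. Doses were the 50% inhibitory concentrations of viability for each line and therefore differed. Ishikawa received 11 nM paclitaxel and 80 nM SM08502, and Ishikawa-S33Y received 6 nM and 85 nM. SNGM received 11.7 nM and 350.7 nM, and HEC265 received 5.6 nM and 149 nM. A difference in response between lines can therefore not be told apart from a difference in dose. Ishikawa libraries were made from 350 ng of RNA and the others from 500 ng, so RNA input cannot be told apart from the line in comparisons with Ishikawa. Whether Ishikawa-S33Y is 1 clone is not given in the sources used here. Per the labels' protocols the cells of a line were plated in duplicate, and nothing more says that replicates are independent cultures, so p-values measure the spread between these samples, which may be technical.

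The promoter table matched 7 of the 10 genes, with 12 windows of 250 bases before a RefSeq start site (GRCh38.p14). Windows of RBM5, TRA2B and SRPK2 are shown because these genes rose with drug and had an entry. RBM5 lies on chromosome 3, plus strand, and its window is chr3:50088669-50088918. TRA2B lies on chromosome 3, minus strand, with its window at chr3:185938015-185938264. SRPK2 lies on chromosome 7, minus strand, and has 4 start sites with a window, of which the one with the most GC boxes is shown, chr7:105388922-105389171. Capitals mark matches, on either strand, to the GC box (GGGCGG) or to the CCAAT box, where matches to 1 motif may overlap. The TATA box (letters TATAAA), the core bound by ETS factors (letters CCGGAAG) and the E-box of MYC-like factors (letters CACGTG) were searched in the same way.

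RBM5: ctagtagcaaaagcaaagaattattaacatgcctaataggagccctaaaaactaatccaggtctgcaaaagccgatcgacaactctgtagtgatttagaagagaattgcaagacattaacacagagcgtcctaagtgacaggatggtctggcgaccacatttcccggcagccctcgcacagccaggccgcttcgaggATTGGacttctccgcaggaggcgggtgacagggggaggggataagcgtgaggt
TRA2B: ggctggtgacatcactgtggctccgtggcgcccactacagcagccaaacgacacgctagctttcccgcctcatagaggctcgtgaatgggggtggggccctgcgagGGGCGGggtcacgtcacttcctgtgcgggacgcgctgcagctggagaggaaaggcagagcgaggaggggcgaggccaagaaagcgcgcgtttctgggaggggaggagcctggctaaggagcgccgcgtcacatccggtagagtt
SRPK2: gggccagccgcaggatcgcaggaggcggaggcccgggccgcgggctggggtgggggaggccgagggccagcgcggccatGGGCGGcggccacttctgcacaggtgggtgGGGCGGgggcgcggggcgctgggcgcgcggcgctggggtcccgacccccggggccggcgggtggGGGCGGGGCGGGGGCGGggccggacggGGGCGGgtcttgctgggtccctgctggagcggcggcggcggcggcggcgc

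A GC box was present in 4 of the 12 windows against 42.6% of all 35116 windows, and a CCAAT box in 3 of 12 against 32.01%. The RBM5 window held 1 CCAAT box and no GC box, the TRA2B window held 1 GC box, and this SRPK2 window held 6 GC boxes. Each of the other SRPK2 windows held 0 GC boxes. The TATA box, ETS core and E-box were in 0 of the 12, and in 10.7%, 8.52% and 6.34% of all windows. These matches describe letters only. RefSeq has entries for 9 of the 10 genes, all but PRPF4B. The kinase genes SRPK1 and SRPK2 span chr6:35832966-35921098 and chr7:105114740-105399357, and TRA2A and TRA2B chr7:23504780-23531981 and chr3:185914558-185938014. SON spans chr21:33543038-33577481, SRRM1 chr1:24643302-24673281 and SRRM2 chr16:2752638-2771412. RBM39 spans chr20:35701347-35742260 and RBM5 chr3:50088919-50119021. Of these genes 6 overlap another annotated gene, among them SRPK2 with KMT2E, RBM5 with the antisense gene RBM5-AS1, and SRPK1 with a long non-coding RNA. SRRM1 has 3 pseudogenes by symbol. The strand of counting is not given in the sources used here, so reads of these overlapping or copied genes may be mixed and their values are uncertain to that extent.

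Counted in M, with 1 M standing for 1000000 reads, 30 libraries had a depth of 13.03 to 34.1 M (median 21.7 M). The second Ishikawa-S33Y combination library had 2.99 M and the second SNGM combination library 1.61 M, where RBM5 rested on 96 reads. All 6 epithelial markers were present in every library (lowest value 60.5 CPM, for KRT19), while CD3E of T cells was listed at 0 in 18 libraries and had at most 0.444 CPM. PTPRC of leukocytes was at 0 in no library and had 0.401 to 2.38 CPM. The endothelial genes PECAM1 and VWF reached 4.31 and 8.34 CPM, and DES of muscle reached 1.61 CPM. COL1A1, a fibroblast gene, ranged from 0 to 1158 CPM (median 16.7). The fibroblast genes COL3A1 and DCN reached at most 4.69 and 3.73 CPM. Libraries also differed in their balance of long and short RNAs, summarised as a length score: the average log2(CPM + 1) over 40 genes whose transcripts are long, less the average over 72 genes of ribosomal proteins. The score was lowest in Ishikawa (-3.10 to -1.62), followed by Ishikawa-S33Y (-2.01 to -1.34), HEC265 (-1.14 to -0.71) and SNGM (-0.62 to -0.0047). Values of both replicates are given as first and second throughout. Where groups of 2 are said not to overlap, this only describes the values. The share of all genes without such overlap was not computed.

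**Figure D1:**
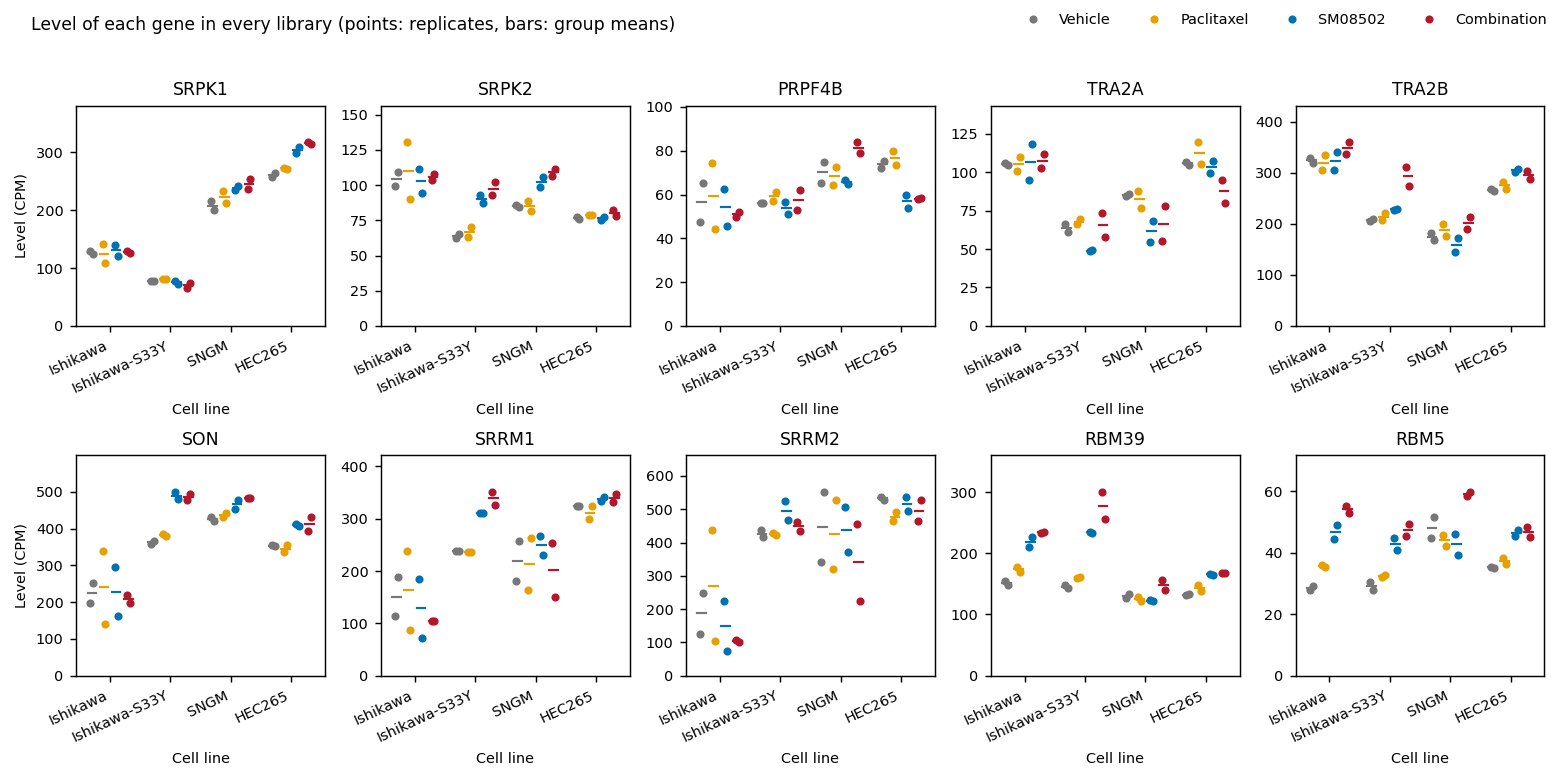
Level in CPM (linear axis from 0) of each of the 10 genes in the 32 libraries, with 1 point per replicate and a bar at the mean of each group of 2; colours mark treatments. RBM39 and RBM5 stand higher with SM08502 and the combination than with vehicle in Ishikawa, Ishikawa-S33Y and HEC265, while replicates of SON, SRRM1 and SRRM2 lie far apart in Ishikawa.

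Among the kinases, SRPK1, which phosphorylates SR proteins in the cytoplasm, separated all 4 lines without drug. Its vehicle levels were 258 and 265 CPM in HEC265, 215 and 201 in SNGM, 129 and 125 in Ishikawa and 77.1 and 77.4 in Ishikawa-S33Y. No 2 lines overlapped. HEC265 exceeded Ishikawa-S33Y by 1.74 on the log2 scale (SE 0.10, adjusted p = 2.57e-12 by limma), and the closest neighbours, HEC265 and SNGM, differed by 0.33 (adjusted p = 0.0113), a call lost without the second SNGM vehicle library (0.0887) or the second HEC265 vehicle library (0.0648). Ishikawa-S33Y, the mutated counterpart of Ishikawa, had lower SRPK1 than Ishikawa by 0.71 (log2 -0.71, adjusted p = 1.05e-05).

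SRPK2, the paralogous kinase, was highest in Ishikawa, with vehicle levels of 99.4 and 109 CPM. SNGM had 85.9 and 84.2 CPM, HEC265 77.3 and 75.8, and Ishikawa-S33Y 62.6 and 65.2. The difference of Ishikawa-S33Y from Ishikawa was -0.70 (adjusted p = 7.24e-05) and that of HEC265 from Ishikawa -0.44 (0.00324), which came to -0.23 after re-centring each library on its median (adjusted p = 0.0561). SNGM was lower than Ishikawa by 0.29 (log2 -0.29, adjusted p = 0.0403), which was not called without the second Ishikawa vehicle library (0.209) or either SNGM vehicle library (0.0898 and 0.129). The neighbours SNGM and HEC265 did not differ beyond their spread (0.312), nor did HEC265 and Ishikawa-S33Y (0.0767). PRPF4B, a nuclear kinase of the spliceosome, had vehicle levels from 47.7 CPM in 1 Ishikawa library to 75.5 CPM in 1 HEC265 library, and no pair of lines was called. Without the second Ishikawa vehicle library, PRPF4B was called higher than in Ishikawa in SNGM (log2 0.54, adjusted p = 0.0291) and HEC265 (0.62, 0.0146).

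TRA2A and TRA2B are SR-like proteins that bind purine-rich exonic enhancers. TRA2B vehicle levels were 329 and 320.2 CPM in Ishikawa, 269 and 264 in HEC265, 207 and 209.7 in Ishikawa-S33Y and 182 and 169 in SNGM, with no overlap between lines. All 6 pairs were called, from 0.89 lower in SNGM than in Ishikawa (log2 -0.89, adjusted p = 7.05e-08) to 0.25 lower in SNGM than in Ishikawa-S33Y (log2 -0.25, 0.0341). The latter call was lost without either Ishikawa-S33Y vehicle library (TRA2B adjusted p = 0.0897 and 0.118) or the second SNGM one (0.187). That of HEC265 against Ishikawa (log2 -0.28) was lost without the first Ishikawa (0.0786), the first HEC265 (0.0511) or the second HEC265 vehicle library (0.0749), and came to -0.07 after re-centring each library on its median. TRA2A had 106 and 105 CPM in Ishikawa, 107 and 105 in HEC265, 84.4 and 85.7 in SNGM, and 66.3 and 61.2 in Ishikawa-S33Y. Ishikawa-S33Y was below Ishikawa (log2 -0.72, adjusted p = 0.000427), HEC265 (HEC265 higher by 0.72, 0.000242) and SNGM (SNGM higher by 0.41, 0.0207). The SNGM call for TRA2A was lost without the second Ishikawa-S33Y vehicle library (0.118) or either SNGM vehicle library (0.0624 and 0.0782). Ishikawa and HEC265 did not differ beyond their spread (0.975).

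Of the speckle proteins, SON and SRRM2 are large scaffolds and SRRM1 is a splicing co-activator. Vehicle levels of SON were 197 and 252 CPM in Ishikawa, 355 and 352 in HEC265, 359 and 366 in Ishikawa-S33Y and 431 and 419.8 in SNGM. SRRM2 had 126 and 248 CPM in Ishikawa, 343 and 551 in SNGM, 436 and 415 in Ishikawa-S33Y and 538 and 528 in HEC265. Both genes were called lower in Ishikawa than in each other line. For SON the differences were 0.70, 0.93 and 0.66 on the log2 scale for Ishikawa-S33Y, SNGM and HEC265, and for SRRM2 they were 1.26, 1.29 and 1.59. SRRM1 had 114 and 189 CPM in Ishikawa, 181 and 258 in SNGM, 238 and 239 in Ishikawa-S33Y and 325 and 325 in HEC265, and was called only for HEC265 against Ishikawa (1.14, adjusted p = 0.0115). Without the first Ishikawa vehicle library these differences were smaller, and of the 7 calls only that of SON in SNGM remained: SRRM1 in HEC265 came to 0.78 (adjusted p = 0.152), SRRM2 to 0.78, 0.81 and 1.10 (0.331, 0.251 and 0.123), and SON to 0.52 in Ishikawa-S33Y and 0.49 in HEC265 (0.209 and 0.2). SON in Ishikawa-S33Y was also lost without either of that line's vehicle libraries (0.0902 and 0.101), SON in HEC265 without either HEC265 one (0.0908 and 0.0852), SRRM2 in Ishikawa-S33Y without either of its own (0.13 and 0.107), and SRRM2 in SNGM without the second SNGM one (0.19).

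In Ishikawa, the spread of these 3 genes moved with the length score. Over the 8 Ishikawa libraries, SRRM2 ran from 73.3 CPM in the second SM08502 library to 437 CPM in the first paclitaxel library, a ratio of 5.89, and the ratio was 3.28 for SRRM1 and 2.41 for SON. The length scores of those 2 libraries were -3.03 and -1.62. As a description over 8 libraries of 4 treatments, which share the ribosomal genes of the score, Pearson's r of level with score was 0.96 for SRRM2, 0.96 for PRPF4B, 0.95 for SON, 0.95 for SRRM1, 0.94 for SRPK2 and 0.81 for SRPK1, against -0.72 for TRA2A, -0.81 for TRA2B and -0.27 for both RBM39 and RBM5. In SNGM it was 0.88 for SRRM2 and 0.83 for SRRM1, but -0.36 for SON. The direction was not shared by all lines. In Ishikawa-S33Y r was -0.73 for SON, -0.89 for SRRM1 and -0.48 for SRRM2. In HEC265 it was -0.65 for SON, -0.36 for SRRM1 and 0.52 for SRRM2. With the score as a covariate, the 7 line differences from Ishikawa above turned negative, for example -2.32 for SRRM2 in SNGM and -0.71 for SON in HEC265. That fit used 1 slope per gene for all lines, set by differences between replicates. Scores of Ishikawa did not overlap those of SNGM or HEC265, so these values extrapolate between lines and do not show the true line difference. The part of library make-up in these differences was not tested.

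**Figure D2:**
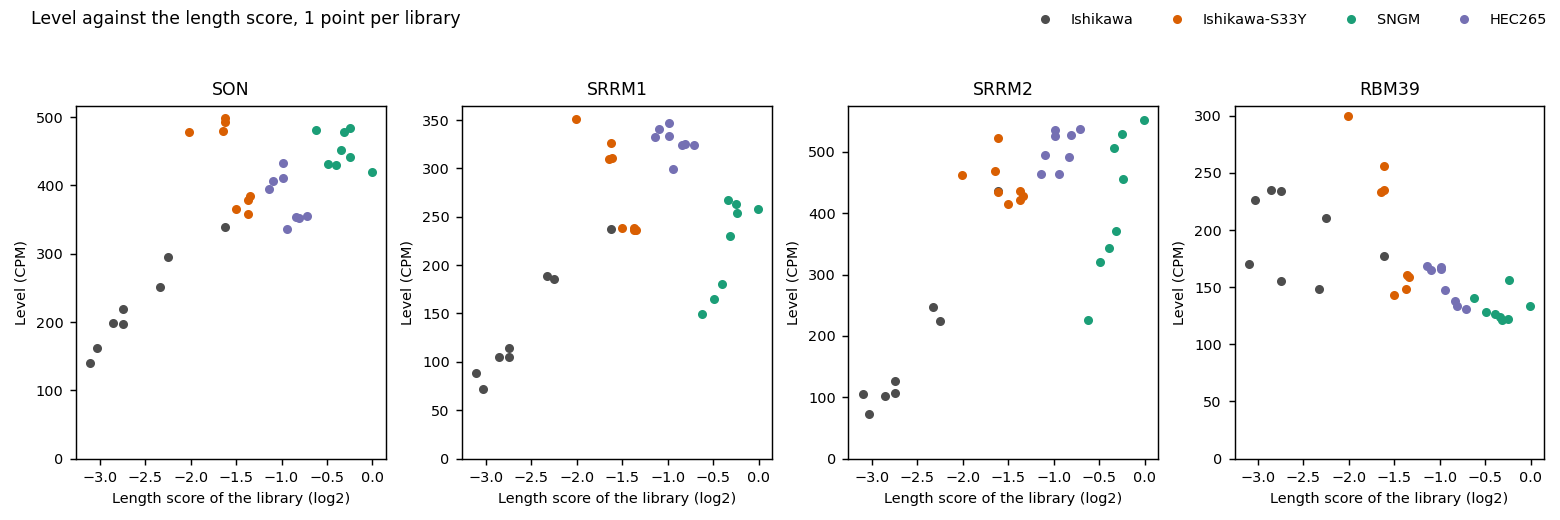
Level in CPM (linear axis from 0) of SON, SRRM1, SRRM2 and RBM39 against the length score of each library (log2 units), with 1 point per library and colours for lines. In Ishikawa the first 3 genes climb with the score, up to 437 CPM for SRRM2, while RBM39 has no such order there.

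RBM39 and RBM5 are RNA-binding proteins that take part in splice site recognition and alternative splicing. RBM39 was nearly level across lines without drug: 155 and 148 CPM in Ishikawa, 126 and 134 in SNGM, 131 and 134 in HEC265 and 148 and 143 in Ishikawa-S33Y. It was called lower than in Ishikawa in SNGM (log2 -0.22, adjusted p = 0.0229) and HEC265 (-0.19, 0.0456). Neither RBM39 call held without the first Ishikawa vehicle library (0.125 and 0.198), and leaving out the first SNGM library (0.131), the second Ishikawa (0.0646) or either HEC265 library (0.154 and 0.103) ended the one it touched; the HEC265 difference was 0.02 after median re-centring. RBM5 was highest in SNGM, with 44.8 and 51.6 CPM, followed by HEC265 with 35.5 and 35.0, Ishikawa with 27.7 and 29.2 and Ishikawa-S33Y with 30.6 and 28.0. SNGM exceeded Ishikawa by 0.74 (adjusted p = 8.10e-07), Ishikawa-S33Y by 0.70 (2.06e-06) and HEC265 by 0.44 (HEC265 minus SNGM -0.44, 0.000623). HEC265 exceeded Ishikawa by 0.30 (0.0105), a call of RBM5 lost without the first vehicle library of either line (0.0706 for Ishikawa, 0.0532 for HEC265), and Ishikawa-S33Y by 0.26 (0.0261), lost without the second Ishikawa-S33Y (0.184) or either HEC265 vehicle library (0.101 and 0.0764).

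Counts of these calls are read against all genes tested. Between Ishikawa-S33Y and Ishikawa, 6 of the 10 genes were called while 48.3% of all genes were. For SNGM against Ishikawa it was 7 of 10 with 66.8% of all genes, and for HEC265 against Ishikawa 8 of 10 with 63.3%. SNGM against Ishikawa-S33Y gave 5 of 10 with 60.8%, HEC265 against Ishikawa-S33Y 4 of 10 with 58.0%, and HEC265 against SNGM 3 of 10 with 54.9%. With only 10 genes, the shares stood on either side of the background, and no difference from it was tested. The count of 8 fell to 2 without the first Ishikawa vehicle library, to 4 without the first HEC265 one and to 5 without the second HEC265 one, and the count of 5 fell to 3 without the second vehicle library of either Ishikawa-S33Y or SNGM.

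SM08502 changed RBM39, RBM5 and SRPK2 among the 10 genes in single lines, each upward. In Ishikawa, 2 of the 10 genes were called higher and 0 lower, where 6.50% of all genes were higher and 8.68% lower. In Ishikawa-S33Y, 3 were higher and 0 lower, with 18.5% and 10.6% of all genes. HEC265 gave 2 higher and 0 lower, with 9.27% and 5.39%. In SNGM 0 of the 10 were called, 2 had an unadjusted p under 0.05, and 3.80% and 4.06% of all genes were called higher and lower. For the mean over the 4 lines, 3 were higher and 1 lower, with 22.6% and 15.8% of all genes, and without the first Ishikawa SM08502 library 2 of these 4 calls were left. The median change of the 10 was 0.09, and that of all genes 0.05. In bulk RNA, a change within each cell and a change in the share of cells that express a gene cannot be told apart.

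RBM39 in Ishikawa was 155 and 148 CPM with vehicle and 211 and 226 with SM08502. In Ishikawa-S33Y it was 148 and 143 with vehicle and 235 and 233 with SM08502, and in HEC265 131 and 134 against 166 and 165. Both SM08502 libraries stood above both vehicle libraries in these 3 lines. The rises were 0.52 in Ishikawa (1.44-fold, 95% interval 0.35 to 0.69, adjusted p = 0.000241), 0.68 in Ishikawa-S33Y (1.60-fold, 0.51 to 0.85, 5.14e-06) and 0.32 in HEC265 (1.25-fold, 0.15 to 0.49, 0.0114). In SNGM, RBM39 had 126 and 134 CPM with vehicle and 124 and 121 with SM08502, both below vehicle, and the difference was -0.08 (-0.26 to 0.09, adjusted p = 0.662). Averaged over lines, RBM39 rose by 0.36 (SE 0.04, adjusted p = 7.65e-07).

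RBM5 was called in the same 3 lines. In Ishikawa it went from 27.7 and 29.2 CPM to 44.5 and 49.2, in Ishikawa-S33Y from 30.6 and 28.0 to 44.9 and 40.8, and in HEC265 from 35.5 and 35.0 to 45.3 and 47.5. Again no SM08502 library overlapped vehicle in these lines. The rises of RBM5 were 0.70 (1.62-fold, 0.50 to 0.90, adjusted p = 6.92e-05), 0.53 (1.45-fold, 0.33 to 0.73, 0.000341) and 0.39 (1.31-fold, 0.19 to 0.59, 0.0091). In SNGM, RBM5 had 44.8 and 51.6 CPM with vehicle and 46.2 and 39.4 with SM08502, which overlapped, and the difference was -0.17 (-0.37 to 0.03, 0.367). Averaged over lines, RBM5 rose by 0.36 (SE 0.05, adjusted p = 5.40e-06).

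The difference between lines was tested itself. The model shared its spread over all lines. The SM08502 effect on RBM39 was 0.61 lower in SNGM than in Ishikawa (log2 -0.61, SE 0.12, adjusted p = 0.0063) and 0.76 lower than in Ishikawa-S33Y (log2 -0.76, SE 0.12, 0.000414). For RBM5 the corresponding differences were -0.87 (SE 0.14, adjusted p = 0.00143) and -0.70 (SE 0.14, 0.00308). In a fit of SNGM and Ishikawa alone the differences between these lines were not called (0.181 for RBM39, 0.113 for RBM5). Against HEC265, SNGM differed for RBM5 (HEC265 minus SNGM 0.56, SE 0.14, adjusted p = 0.0364) but not beyond the threshold for RBM39 (0.40, 0.0787). The RBM5 difference from HEC265 was not called when any 1 of the 4 HEC265 libraries (0.126, 0.135, 0.0948 and 0.16), the second SNGM vehicle library (0.168) or the second SNGM SM08502 library (0.197) was left out. Of all genes, 3.66% were called for SNGM against Ishikawa, 9.83% for SNGM against Ishikawa-S33Y and 2.03% for HEC265 against SNGM, with 2, 2 and 1 of the 10 genes. In the other 3 pairs 0 of the 10 were called by limma, and 1, 1 and 2 had an unadjusted p under 0.05, where 2.43% of all genes were called for Ishikawa-S33Y against Ishikawa, 2.56% for HEC265 against Ishikawa and 5.66% for HEC265 against Ishikawa-S33Y. SNGM received the highest SM08502 dose of the 4 lines, 350.7 nM.

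The HEC265 rises are the less firm ones. RBM39 was not called there when any of the 4 libraries was left out (adjusted p = 0.0922 and 0.0636 without a vehicle library, 0.0825 and 0.072 without an SM08502 library), and RBM5 was lost without either vehicle library (0.0589 and 0.0732) or the second SM08502 library (0.098) and kept without the first (0.0426). Median re-centring of the libraries also ended both HEC265 calls (RBM39 0.22, adjusted p = 0.128; RBM5 0.29, 0.0927), as did limma voom on recovered reads (0.19, 0.139; 0.27, 0.0513). With the length score as a covariate, the RBM39 changes were 0.52, 0.68 and 0.31 and the RBM5 changes 0.70, 0.53 and 0.39 in Ishikawa, Ishikawa-S33Y and HEC265. Within Ishikawa-S33Y and HEC265 the level of RBM39 moved against the score over 8 libraries (r = -0.87 and -0.92), and that of RBM5 did too (-0.71 and -0.93). When each line was fitted on its own, Ishikawa gave adjusted p = 0.09 for RBM39 and 0.0699 for RBM5, and the other 2 lines kept both calls.

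**Figure D3:**
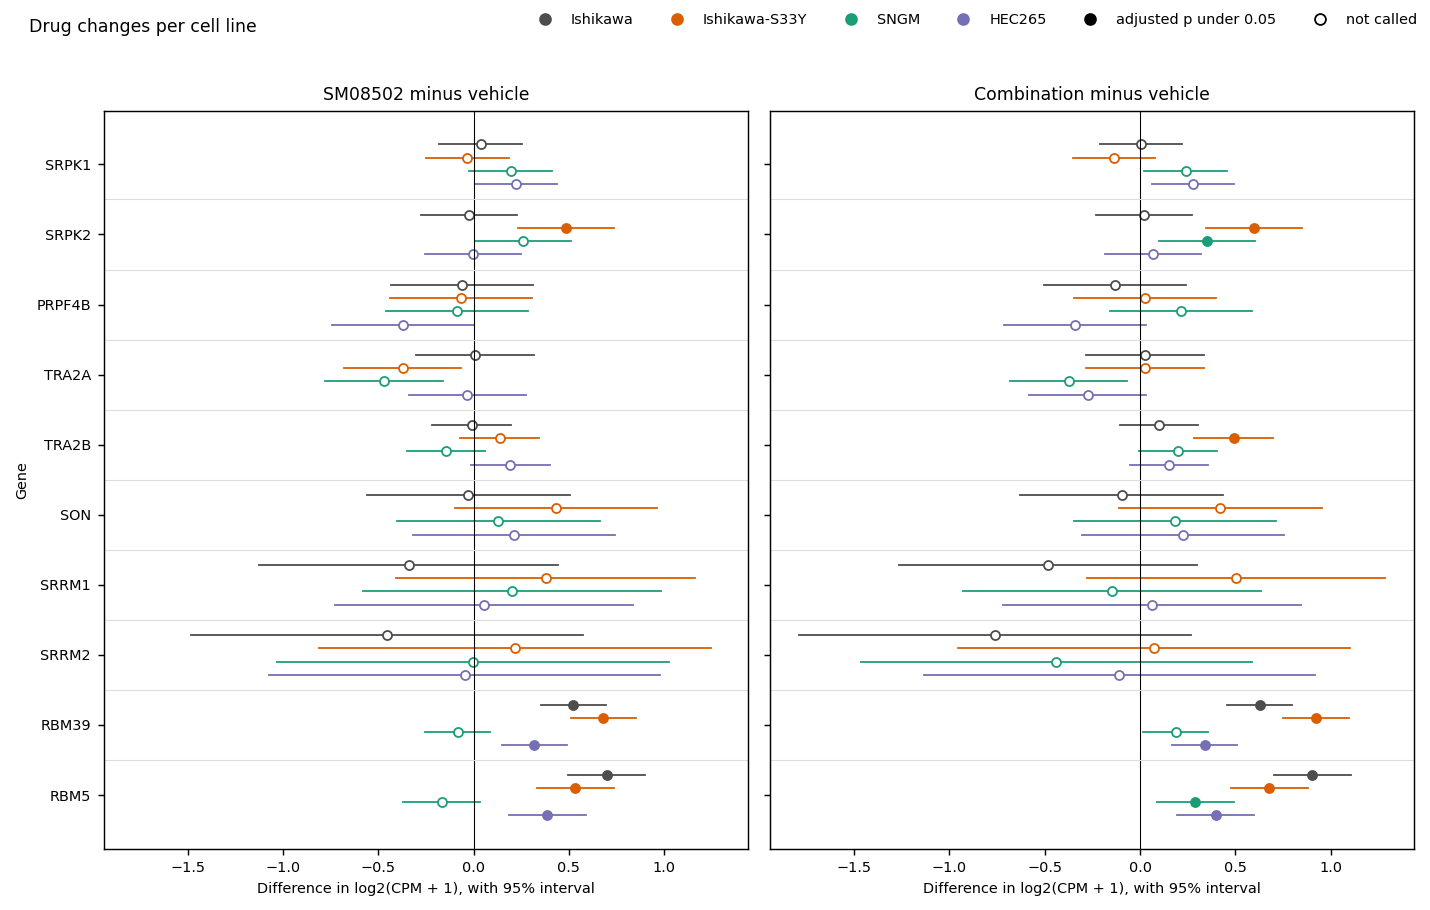
Change in log2(CPM + 1) from vehicle with SM08502 (left) and the combination (right) for each gene and line, with 95% intervals from limma; filled points have an adjusted p under 0.05. RBM39 and RBM5 lie to the right of 0 in all lines but SNGM with SM08502, where the points are at -0.08 and -0.17.

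SRPK2 rose with SM08502 in Ishikawa-S33Y, from 62.6 and 65.2 CPM to 92.8 and 87.0, without overlap. The change was 0.48 (1.40-fold, 95% interval 0.23 to 0.74, adjusted p = 0.00475). In SNGM the levels of SRPK2 were 85.9 and 84.2 CPM against 98.6 and 106 (0.26, adjusted p = 0.235), in Ishikawa 99.4 and 109 against 112 and 94.1 (-0.02, 0.924) and in HEC265 77.3 and 75.8 against 75.4 and 77.5 (-0.0022, 1). The rise in Ishikawa-S33Y exceeded that in Ishikawa by 0.51 (SE 0.17, adjusted p = 0.12), which did not pass the threshold, except without the first Ishikawa SM08502 library (0.63, 0.0396). The mean over lines was 0.18 (adjusted p = 0.0233), and it was not called without the first Ishikawa vehicle (0.0586), first Ishikawa SM08502 (0.061), first Ishikawa-S33Y SM08502 (0.0544) or second SNGM SM08502 library (0.0533). The other kinases were not called in any line: SRPK1 changed by between -0.03 in Ishikawa-S33Y and 0.22 in HEC265, and PRPF4B by between -0.37 in HEC265 and -0.06 in Ishikawa. In HEC265, SRPK1 stood at 258 and 265 CPM with vehicle and 299.8 and 309 with SM08502 (adjusted p = 0.177), and PRPF4B at 72.3 and 75.5 against 60.0 and 53.9 (0.19); both were called when HEC265 was fitted alone (0.00199 and 0.0076).

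TRA2A was the 1 gene of the 10 called lower, for the mean over lines (-0.22, SE 0.07, adjusted p = 0.0244). In SNGM it went from 84.4 and 85.7 CPM to 54.8 and 68.1 (-0.47, adjusted p = 0.0558), and in Ishikawa-S33Y from 66.3 and 61.2 to 48.6 and 49.3 (-0.37, 0.0638). No library overlapped between the groups in those lines, yet neither passed the threshold. Ishikawa had 106 and 105 CPM against 94.9 and 118, and HEC265 107 and 105 against 99.3 and 107, both overlapping. Without the 2 shallow combination libraries, whose spread enters the fit of every gene, TRA2A was called in SNGM (-0.47, adjusted p = 0.0115) and in Ishikawa-S33Y (-0.37, 0.0179), and in SNGM also without the second SM08502 library (-0.62, 0.0473). The mean over lines was not called without the first SM08502 library of Ishikawa (0.0659), SNGM (0.0775) or HEC265 (0.0567) or the first Ishikawa-S33Y vehicle library (0.0566). TRA2B was not called with SM08502 in any line, with changes from -0.15 in SNGM to 0.19 in HEC265.

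SON, SRRM1 and SRRM2 had no call with SM08502, and their intervals were wide: for SRRM2 in Ishikawa the change was -0.46 (95% interval -1.48 to 0.57), from 126 and 248 CPM to 224 and 73.3. In Ishikawa-S33Y, where replicates of each gene lay close, SON went from 359 and 366 CPM to 499 and 479.7, SRRM1 from 238 and 239 to 310.3 and 310.2, and SRRM2 from 436 and 415 to 523 and 469. All 3 genes stood higher in both SM08502 libraries. Fitted on that line alone the changes passed the threshold, with 0.43 for SON (adjusted p = 0.000633), 0.38 for SRRM1 (0.00116) and 0.22 for SRRM2 (0.0372), whereas with the spread shared over all lines they did not (0.219, 0.493 and 0.789). In HEC265, SON had 355 and 352 CPM against 412 and 406 (0.21, adjusted p = 0.716, and 0.0222 in its own fit).

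Paclitaxel alone changed none of the 10 genes by limma in any line or for the mean over lines. All genes called made up 0.0176% in SNGM, 0.0118% in Ishikawa, 0.00588% in HEC265, 0% in Ishikawa-S33Y and 0% for the mean. An unadjusted p under 0.05 was reached by 2 of the 10 in Ishikawa, 0 in each other line and 2 for the mean. Those were RBM39 and RBM5 both times. In Ishikawa RBM39 had 177 and 170.1 CPM with paclitaxel against 155 and 148 with vehicle (0.19, adjusted p = 0.618), and RBM5 35.9 and 35.3 against 27.7 and 29.2 (0.31, 0.386). The groups did not overlap, and the same held for both genes in Ishikawa-S33Y and HEC265. In those last lines SRPK1 also stood above vehicle without overlap, and SRRM1 below. The share of all genes without overlap was not computed, so this order is no evidence of a paclitaxel effect. In SNGM they overlapped for both.

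The combination raised RBM39 and RBM5 in Ishikawa (2 of 10 higher, 0 lower, with 11.6% and 11.2% of all genes) and in HEC265 (2 and 0, with 12.4% and 7.16%). In Ishikawa-S33Y SRPK2, TRA2B, RBM39 and RBM5 rose (4 and 0, with 24.0% and 18.0%), and in SNGM SRPK2 and RBM5 (2 and 0, with 10.8% and 7.54%). For the mean over lines 4 rose and 0 fell, with 29.0% and 20.1% of all genes. RBM39 reached 299.9 and 256 CPM in Ishikawa-S33Y (0.92, 1.90-fold, adjusted p = 4.28e-08), 234 and 235 in Ishikawa (0.63, 2.49e-05), 168 and 167 in HEC265 (0.34, 0.00542) and 156 and 141 in SNGM (0.19, 0.12). RBM5 reached 55.2 and 53.0 CPM in Ishikawa (0.90, 1.87-fold, 2.87e-06), 45.4 and 49.5 in Ishikawa-S33Y (0.68, 1.24e-05), 48.5 and 45.0 in HEC265 (0.40, 0.00559) and 58.3 and 59.7 in SNGM (0.29, 0.0412). Every combination library of both genes stood above the vehicle libraries of its line. In HEC265, RBM39 was not called without the first vehicle library (0.0532) and RBM5 not without the first combination library (0.066), and neither after median re-centring (0.0933 and 0.0787) or under limma voom (0.142 and 0.0621).

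SRPK2 with the combination was 92.7 and 102 CPM in Ishikawa-S33Y (0.60, adjusted p = 0.000473) and 107 and 111 in SNGM (0.35, 0.0466), above vehicle without overlap. TRA2B reached 312 and 275 CPM in Ishikawa-S33Y (0.49, adjusted p = 0.000463) and rose by 0.24 for the mean over lines (0.000491), which limma voom put at 0.11 (0.113). The SNGM calls were not firm. SRPK2 there was lost without either vehicle library (0.128 and 0.186) or the second combination library (0.206), and RBM5 without the first vehicle library (0.307) or the second combination library (0.165). TRA2A in SNGM had 54.9 and 77.8 CPM with the combination (-0.37, adjusted p = 0.0827) and was called without the second, shallow library (-0.62, 0.0146). For the mean over lines, TRA2A stood at -0.15 (adjusted p = 0.0999) and was called without that library (-0.21, 0.0133) or without the first Ishikawa-S33Y combination library (-0.19, 0.0395).

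Against SM08502 alone, the combination gave 0 of 10 calls in Ishikawa, Ishikawa-S33Y and HEC265, with 1, 3 and 0 at an unadjusted p under 0.05, and all genes called made up 0%, 0.129% and 0.00588%. In SNGM 1 of 10 was called, with 0.253% of all genes: RBM5, at 58.3 and 59.7 CPM against 46.2 and 39.4 (0.46, SE 0.10, adjusted p = 0.0485). That call was lost without either SM08502 library (0.0927 and 0.462) or the second combination library (0.409), and TRA2B joined it without the first (0.43, 0.00915). The departure of the combination from the sum of both single drug effects, averaged over lines, was called by limma for 0 of 10, with 1 at an unadjusted p under 0.05, and for 0% of all genes.

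Genes of the same pathway are described by their mean SM08502 change over lines, for which 22.6% of all genes were called higher and 15.8% lower, with a median of 0.05. The counts below are to be read against these shares. Of 10 other SR kinases, 4 rose and 0 fell (median 0.21). The largest of these rises was that of CLK1, 1 of the kinases the drug inhibits (1.53, SE 0.07, adjusted p = 6.07e-12). CLK1 also rose in SNGM, by 1.04 (adjusted p = 7.58e-05). Of 12 classical SR proteins 2 rose and 4 fell (median -0.07): SRSF6 (0.31) and SRSF10 (0.25) rose, while SRSF2 (-0.53) and SRSF8 (-0.29) fell furthest. SRSF6 rose in Ishikawa (0.39), Ishikawa-S33Y (0.59) and HEC265 (0.26) and was at 0.00052 in SNGM.

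Of 32 other SR-related proteins, 16 rose and 3 fell (median 0.23), beside 22.6% and 15.8% of all genes. LUC7L3, a protein related to the U1 small nuclear ribonucleoprotein, rose by 0.55 (SE 0.09, adjusted p = 6.18e-05), with 0.58 in Ishikawa (0.0341), 1.09 in Ishikawa-S33Y (0.000139), 0.50 in HEC265 (0.0704) and 0.02 in SNGM (0.991). RSRC2 rose by 0.48 (SE 0.05, 6.11e-07), with 0.57 in Ishikawa, 0.69 in Ishikawa-S33Y and 0.49 in HEC265, each called, and 0.16 in SNGM (0.479). DDX46, a helicase of early spliceosome assembly, fell by 1.22 (SE 0.10, 6.46e-09) and was called lower in all 4 lines. THRAP3 fell by 1.09 (SE 0.13, 1.49e-06), with calls in Ishikawa (-1.76) and Ishikawa-S33Y (-1.63). It was not called by limma in HEC265 (-0.69, adjusted p = 0.0867) or SNGM (-0.28, 0.642). Replicates of both genes spread widely in Ishikawa. With paclitaxel, THRAP3 had a mean of 110 CPM (standard deviation 69.8) and DDX46 90.5 CPM (42.8). With SM08502, THRAP3 had 38.8 CPM (15.1). By line, Ishikawa-S33Y had 12 of the 32 higher and 3 lower, Ishikawa 6 and 3, HEC265 5 and 1, and SNGM 0 and 2. The shares of all genes called higher and lower also differed by line, with 18.5% and 10.6% in Ishikawa-S33Y, 6.50% and 8.68% in Ishikawa, 9.27% and 5.39% in HEC265 and 3.80% and 4.06% in SNGM, and a difference of the list between lines was not tested.

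Of 12 further RNA-binding motif proteins, 5 rose and 2 fell (median 0.16), beside 22.6% and 15.8% of all genes. RBMXL1 rose by 0.68 and RBM4 by 0.44, RBM4B fell by 0.89 and RBM23 by 0.46. RBM4 and RBM4B overlap in the annotation, so their reads may be mixed. Of 9 phosphatase, chaperone and import partners, 1 rose (PPP1CA, 0.20) and 1 fell (PPP1CB, -0.48); both are catalytic subunits of a phosphatase that acts on SR proteins.

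**Figure D4:**
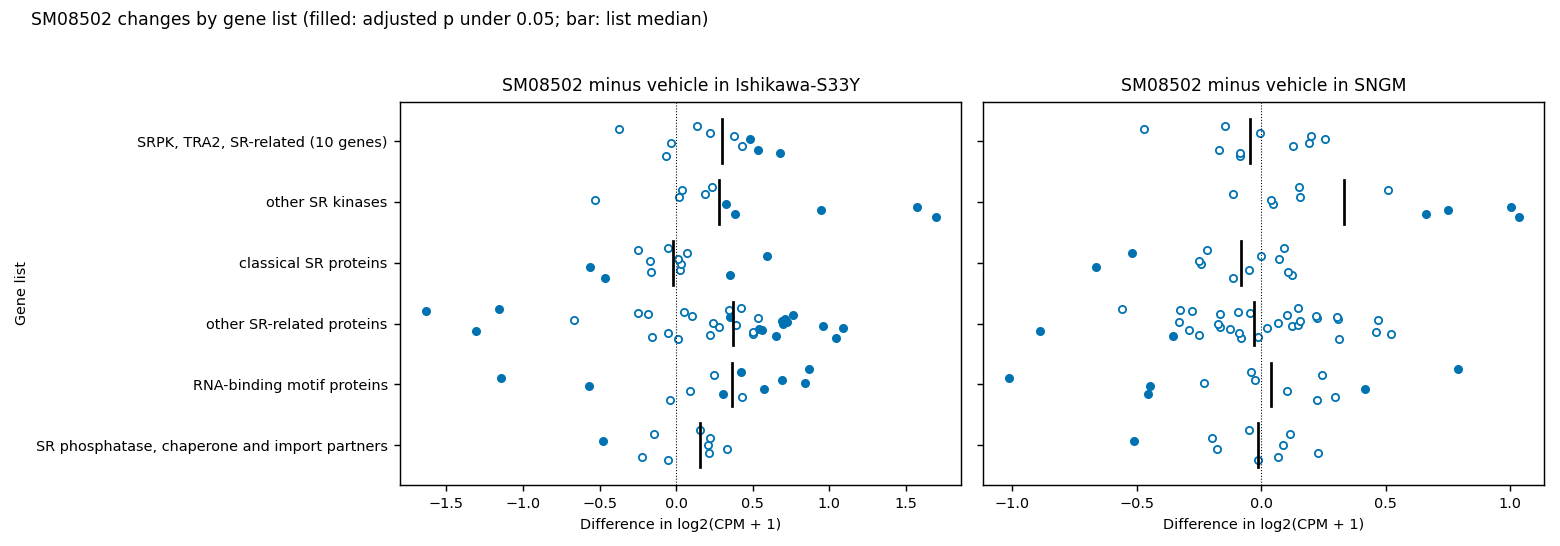
SM08502 change in log2(CPM + 1) for each gene of the 6 lists in Ishikawa-S33Y (left) and SNGM (right), with 1 point per gene, filled where the adjusted p is under 0.05, and a bar at each list's median. In the list of 32 other SR-related proteins, 12 are called higher in Ishikawa-S33Y and 0 in SNGM, where 18.5% and 3.80% of all genes were called higher.

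As a description of which genes shared a pattern, each gene was centred within lines and compared over the 16 group means, among 8487 genes with a mean log2(CPM + 1) of at least 4. RBM39 and RBM5 were most alike among the 10 (r = 0.94), and SRPK2 and SON followed (0.83), while TRA2A and SON were least alike (-0.64). Over all genes, RBM39 was nearest to MYSM1 (0.99) and POLB (0.98), RBM5 to ATM (0.98) and RANBP17 (0.97), and SRPK2 to ATF4 (0.96) and ZNF714 (0.96). SON was nearest to SCAF4 (0.98) and LIMD1 (0.97), SRRM1 to NECTIN1 (0.96) and ZNF142 (0.95), and SRRM2 to WNK1 (0.95) and RPRD2 (0.94). The nearest genes were MRPL2 (0.94) and NUDT22 (0.93) for SRPK1, TTC21B (0.94) and TSEN15 (0.93) for PRPF4B, DDX47 (0.91) and IRF1 (0.91) for TRA2B, and PCMTD1 (0.85) and SUMF1 (0.84) for TRA2A. The 16 points share lines, vehicle samples and libraries, and no p is given.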

How the data were processed

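RNA of 32 libraries (4 lines, 4 treatments, 2 replicates) was sequenced after ribosomal RNA depletion, per the labels' protocols. Per the values, the table deposited by the authors holds log10(CPM + 1) for 35238 genes. The submitters' processing notes name bcl2fastq, STAR, kallisto and GRCh38; the counting program, annotation and strand are not given in the sources used here. CPM was restored, and whole reads were recovered for 100% of values within 0.1 reads, which gave the depth (1.61 to 34.1 M, 1 M being 1000000 reads).

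Log2(CPM + 1), pseudocount 1, was fitted with limma 3.58.1 in R 4.3.3: 16 group means over all 32 libraries, empirical Bayes with intensity trend (16 residual and 4.90 prior degrees of freedom), 32 contrasts, two-sided, Benjamini-Hochberg adjustment over 17011 genes (CPM above 1 in at least 2 libraries), called at adjusted p under 0.05. A fold on this scale understates the change of low genes. The fit was tested on simulated counts with the same small spread for every gene and no shift in library make-up. That test does not cover replicates as far apart as those of SRRM2 in Ishikawa.

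Alternatives were other filters, pseudocount 0.1, median re-centring, quantile normalization, no trend, each comparison's own lines, a replicate block, limma voom on recovered reads, the length score as covariate and each library left out; leaving out both shallow libraries and a block with crossed numbers were added after seeing the data. The 10 genes and the other lists were chosen with earlier results of these data known. Named from each other list were the largest called mean SM08502 changes, 2 each way for classical SR, other SR-related and RNA-binding motif proteins and 1 each way for the rest, and the 2 genes most like each of the 10.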

Additional observations from a re-analysis of the deposited data

Results flagged for a closer look

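In 5 comparisons the SM08502 effect differed between lines by a test of the difference itself, each in limma's fit over all genes. SNGM fell short of Ishikawa for RBM39 (log2 difference of effects -0.61, SE 0.12, adjusted p = 0.0063) and RBM5 (-0.87, SE 0.14, 0.00143). It fell short of Ishikawa-S33Y for RBM39 (-0.76, SE 0.12, 0.000414) and RBM5 (-0.70, SE 0.14, 0.00308). HEC265 exceeded SNGM for RBM5 (0.56, SE 0.14, 0.0364). In both SNGM replicates treated with SM08502, RBM39 was at 124 and 121 CPM, below the vehicle libraries. RBM39 and RBM5 stood above vehicle in both SM08502 replicates of each other line, as a description only. The share of all genes in such an order was not computed. Both genes stood above vehicle with paclitaxel in those lines too, where neither was called. Over 20 alternatives the differences from Ishikawa-S33Y were called in 20 for both genes, those from Ishikawa in 19 for both, and the one from HEC265 in 10. SM08502 doses differed by line, and the part of dose was not tested.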

How the results depend on the processing

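Of the counts of called genes among the 10 recomputed under an alternative, 504 stayed within 1.5 times and 92 moved, and of the log2 changes 5351 kept direction and call, 139 gained a call, 144 lost one, 307 changed sign without a call under either setting, and 19 changed sign with a call under at least 1. Leaving out 1 replicate at a time gave 0 to 1 calls for SM08502 in SNGM, 0 to 2 for the combination in SNGM, 0 to 2 for the combination against SM08502 in SNGM, 0 to 1 for SM08502 in HEC265, 1 to 2 for the combination in HEC265 and 2 to 4 for the SM08502 mean. For the line differences it gave 0 to 1 for the SM08502 effect in Ishikawa-S33Y against Ishikawa and in HEC265 against SNGM, and for vehicle levels 2 to 8 in HEC265 against Ishikawa and 3 to 4 in SNGM against Ishikawa-S33Y. Where the lone library of a group was kept, it was assumed to vary like the other groups.

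For SM08502 in SNGM, 0 calls became 1 under the stricter filter, limma voom, both blocks and without the 2 shallow libraries, and 2 with the length score. The combination in SNGM, with 2 calls, had 1 without a filter, after median re-centring, after quantile normalization, under limma voom and without the shallow libraries, 0 without the trend and in its own line's fit, and 6 with the length score. The combination against SM08502 in SNGM went from 1 to 0 under the stricter filter, re-centring, quantile normalization, no trend, its own line's fit, limma voom, the crossed block and without the shallow libraries, and to 3 with the length score. In HEC265, SM08502 went from 2 to 1 under re-centring, quantile normalization and limma voom (RBM39 under quantile normalization, otherwise PRPF4B, which was lower, with RBM39 and RBM5 both lost), to 6 in its own fit and to 4 with the length score; the combination went from 2 to 1 under re-centring (PRPF4B, with RBM39 and RBM5 both lost), to 6 in its own fit, to 5 with the length score and to 4 with the crossed block. In Ishikawa, SM08502 had 0 calls in its own fit. In Ishikawa-S33Y, SM08502 went from 3 to 7 in its own fit and with the length score, the combination from 4 to 8 with the length score, and the combination against SM08502 from 0 to 1 under quantile normalization and the length score. With the length score the means over lines had 7 calls for SM08502 and 8 for the combination. Calls over all genes rose with that covariate too, from 6546 to 7884 and from 8355 to 8866 for these means, and from 2494 to 4016 for SM08502 in HEC265. In Ishikawa-S33Y they rose from 4946 to 6616 for SM08502 and from 7147 to 8419 for the combination. There they also rose from 22 to 351 for the combination against SM08502. The combination in HEC265 went from 3319 to 4924 such calls. In SNGM they rose from 1337 to 2826 for SM08502 and from 3128 to 4527 for the combination. The combination against SM08502 in SNGM went from 43 to 250. For fits of only the lines compared, other filters, no trend, the blocks or libraries left out, calls over all genes were not recorded. Counts from those fits, here and below, therefore have no background share beside them.

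The SM08502 effect in Ishikawa-S33Y against Ishikawa went from 0 calls to 3 with the length score and 1 with the crossed block, and in SNGM against Ishikawa from 2 to 0 in the fit of those lines alone. In HEC265 against Ishikawa-S33Y it went from 0 to 1 under re-centring, quantile normalization, limma voom and without the shallow libraries, to 2 with the length score and the crossed block, and to 5 in the fit of those lines. In HEC265 against SNGM it went from 1 to 0 under re-centring, quantile normalization and no trend, and to 2 in the fit of those lines, with the length score, the crossed block and without the shallow libraries. Vehicle calls went from 7 to 4 for SNGM against Ishikawa and from 4 to 8 for HEC265 against Ishikawa-S33Y in the fit of those lines, and for HEC265 against SNGM from 3 to 5 in that fit and with the crossed block and to 6 with the length score. With the length score, calls over all genes went from 413 to 2044 for the SM08502 effect in Ishikawa-S33Y against Ishikawa. They went from 962 to 2154 in HEC265 against Ishikawa-S33Y and from 345 to 1012 in HEC265 against SNGM. For vehicle levels of HEC265 against SNGM they went from 9339 to 10123. The cause of these shifts was not tested. In a fit of only the lines compared, the libraries of those lines alone set the spread.

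The length score covariate carries 1 slope per gene across lines, whose scores did not overlap apart from Ishikawa and Ishikawa-S33Y. With this covariate, vehicle differences reversed as follows. Against Ishikawa, Ishikawa-S33Y came to -0.57 for PRPF4B, -0.15 for SON, -0.56 for SRRM1 and -0.44 for SRRM2. SNGM came to -0.90 for PRPF4B, -0.88 for SON, -2.11 for SRRM1 and -2.32 for SRRM2, and HEC265 to -0.53 for PRPF4B, -0.71 for SON, -0.88 for SRRM1, -1.16 for SRRM2 and 0.0069 for TRA2B. Against Ishikawa-S33Y, SNGM came to -0.33 for PRPF4B, -0.72 for SON and -1.88 for SRRM2, and HEC265 to -0.72 for SRRM2. The combination mean of SRRM1 came to 0.32. RBM39 in HEC265 against Ishikawa came to 0.0212 after median re-centring.

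The labels give only replicate numbers, and same-numbered deviations correlated at -0.59 to 0.85 over pairs of treatments. They ran from -0.54 to 0.85 in Ishikawa and from -0.59 to 0.78 in SNGM, so equal numbers did not mark a consistent pairing. With the replicate block, SM08502 in SNGM had 1 call among the 10, the combination in SNGM 0, the combination against SM08502 in SNGM 0 and the effect in HEC265 against SNGM 0. A block with the numbers crossed gave the counts named above. The crossing was set from these same correlations, so that block is no independent check. Over all genes, the share of calls that were higher moved with scaling: for SM08502 from 42.8% to 53.3% in Ishikawa and from 63.2% to 39.3% in HEC265 after re-centring, from 63.6% to 52.5% in Ishikawa-S33Y after quantile normalization, and for the combination in HEC265 from 63.3% to 41.1% after re-centring. Under limma voom, SM08502 changed 5579 genes in Ishikawa-S33Y (45.6% of them higher), 3525 in HEC265 (38.4%), 3017 in Ishikawa (35.8%) and 2731 in SNGM (43.4%). Re-centring moved the median of all genes by -0.11 for the combination in HEC265 and by 0.21, 0.14 and 0.19 for vehicle levels of HEC265 and SNGM against Ishikawa and HEC265 against Ishikawa-S33Y. RBM5 rested on 96 reads in the shallowest library, which limits its combination values in SNGM.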
